A study of Arabidopsis thaliana with 12 samples.

Results

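The genes described here are 7 nuclear genes of redox control, antioxidant defence and detoxification in *Arabidopsis thaliana*: NTRC (AT2G41680), AT3G52960, SRX (AT1G31170), CCS (AT1G12520), GLDH (AT3G47930), GLX2-1 (AT2G43430) and CHL (AT3G47860). They were chosen by name, as genes that the array's annotation lists alone for a probe. Each of the 7 has 1 such probe, of 692 probes with a single listed gene (691 genes) and 3439 probes in all. None of the 7 is also listed for a probe with several genes, and all 7 were tested. Total RNA was profiled from 6 samples of the psad1 mutant, which lacks the photosystem I protein PSI-D1, and from 6 wild-type (WT) samples, all in the Columbia 0 ecotype. The labels give no tissue, age, allele or growth condition, nor do they say how many plants or lines stand behind the samples. Markers of seed, flower, root and senescing leaf, 8 genes in all, had no probe of their own, so the tissue could not be checked. The question is how the levels of these transcripts differ in the absence of PSI-D1.

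Photosystem I passes electrons to ferredoxin on the stromal side of the thylakoid, and from there they reach NADP, thioredoxins and, in a side reaction, oxygen. Superoxide and hydrogen peroxide formed in this way are removed by superoxide dismutases, by ascorbate peroxidases and by peroxiredoxins, whose reactive cysteine is oxidised by peroxide and must be reduced again by thiol donors. NTRC joins a thioredoxin reductase and a thioredoxin in 1 chloroplast protein that uses NADPH to reduce peroxiredoxins. AT3G52960 encodes a peroxiredoxin, and SRX encodes sulfiredoxin, which repairs peroxiredoxins whose cysteine has been over-oxidised. These 3 genes are called the thiol peroxidase genes below. The name only groups them, and whether NTRC or SRX act on the AT3G52960 protein was not examined here. Of the other 4, CCS delivers copper to copper/zinc superoxide dismutases, GLDH carries out the last step of ascorbate synthesis in mitochondria, GLX2-1 belongs to the glyoxalase II family of thioesterases, and CHL is a chloroplast lipocalin, a small lipid-binding protein that protects thylakoid lipids against oxidation.

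Values are deposited intensities in relative units on a linear scale. Median intensity per sample lay between 0.554 and 0.623 in psad1 and between 0.576 and 0.599 in WT. Levels of different probes cannot be compared with each other, because each probe binds its transcript with its own strength. The samples fell into sets: within each genotype samples 1 and 2, 3 and 4, and 5 and 6 formed groups of like samples, with deviations from the genotype mean that correlated at 0.469 to 0.649 between such partners and at −0.609 to −0.111 otherwise. Deviations within a genotype cancel out around its mean, so the negative values follow in part from subtracting that mean. Each of the 12 samples correlated best, among those of its own genotype, with its partner. The 3 set averages per genotype were therefore the replicates of the test, limma on log2 intensities with Benjamini-Hochberg adjustment over all 3202 tested probes and a threshold of 0.05. The fit that takes the 12 samples as independent is given beside it. The labels do not say whether sets stand for separate plants, and the spread behind each p-value may be technical. The number of arrays limits the precision.

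None of the 7 genes passed the test in either fit. On set averages 0 of 7 were called, where 0.874% of all tested probes were, and none reached an unadjusted p of 0.05. On 12 samples 0 of 7 were called, where 15.8% of all tested probes were, and AT3G52960 alone had a limma unadjusted p under 0.05 (0.0244). On set averages its limma unadjusted p was 0.0826. The fit on 12 samples counts like partners as independent, so its p-values can be too small. In 5 genes the mean was higher in psad1 and in 2 (SRX and GLDH) it was lower, with log2 changes between −0.05 and 0.34. Their median log2 change was 0.14, against −0.02 over all tested probes, of which 46.7% were higher in psad1. Set averages of the genotypes overlapped in all 7 genes, where they did not overlap for 20.8% of all tested probes. The plot of intensity by sample shows the overlap and the sets.

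**Figure D1:**
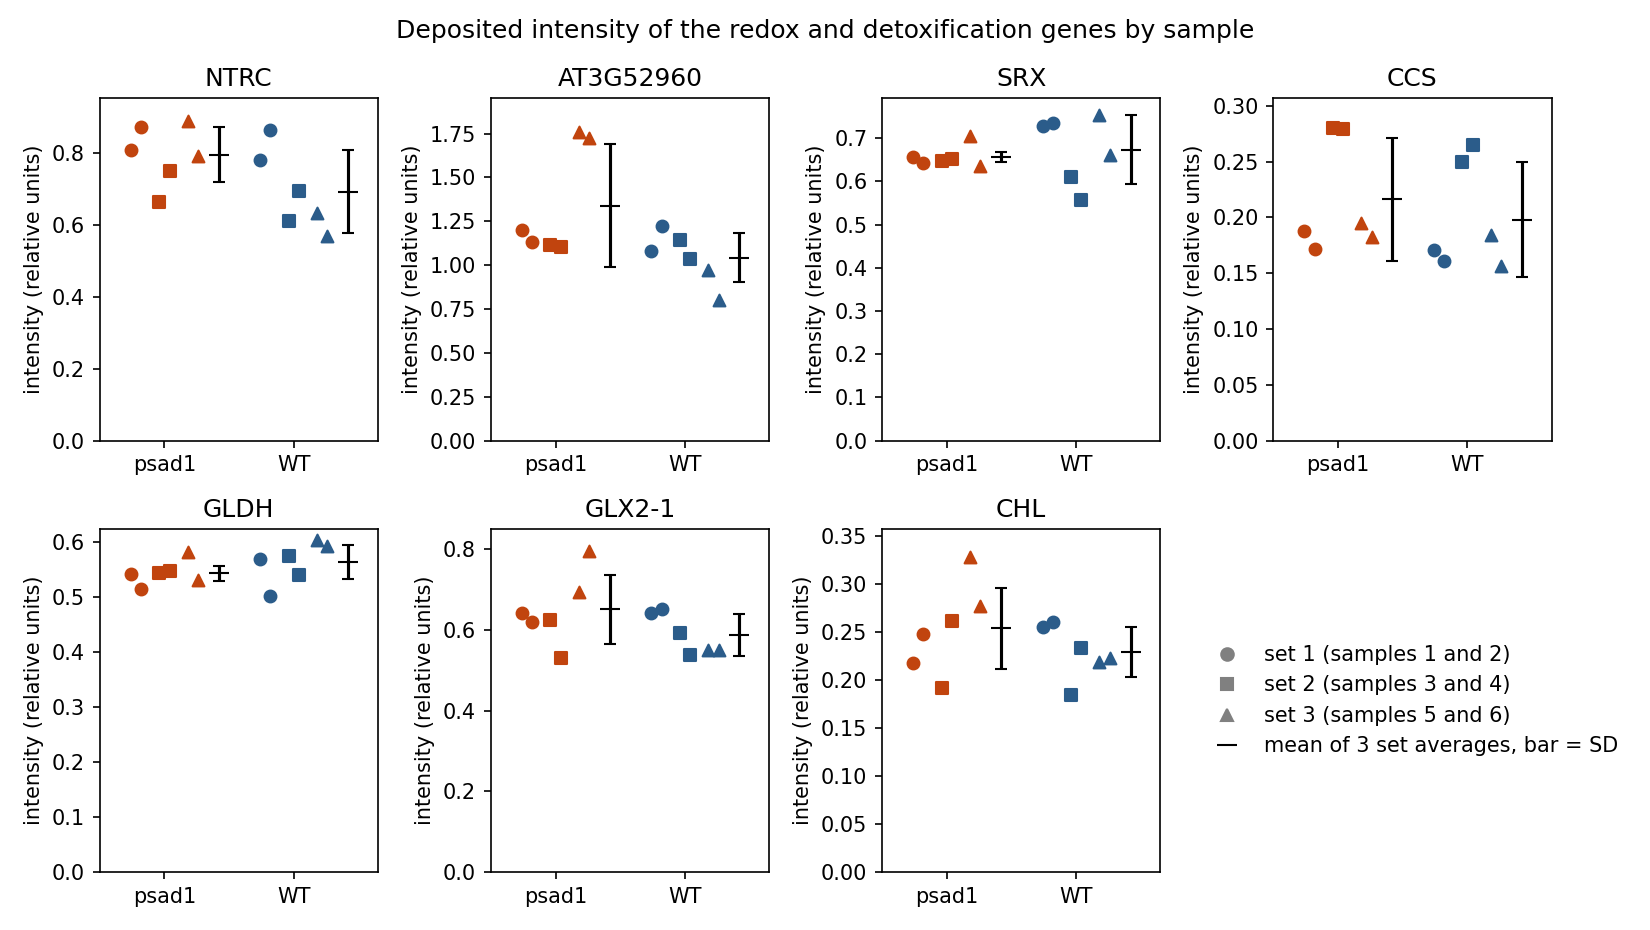
Deposited intensity (relative units, axis from 0) of the 7 genes in 6 psad1 samples (left) and 6 WT samples (right). Each point is a sample, its shape gives the set of 2 samples, and the bar is the mean of the 3 set averages with its SD. AT3G52960 stands at 1.76 and 1.73 in the third psad1 set and at 1.10 to 1.20 in the other psad1 samples, and CCS is highest in the second set of both genotypes.

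Among the thiol peroxidase genes, the peroxiredoxin gene AT3G52960 had the widest difference of the 7. Its intensity was 1.20, 1.13, 1.12, 1.10, 1.76 and 1.73 in psad1 samples 1 to 6, against 1.08, 1.22, 1.15, 1.04, 0.972 and 0.799 in WT samples 1 to 6. Only psad1 samples 5 and 6 were above every WT sample, and WT samples 5 and 6 were the lowest of all. Set averages gave 1.34 ± 0.351 in psad1 and 1.04 ± 0.14 in WT (SD, n = 3 each). The log2 change was 0.34 with a standard error (SE) of 0.18 and a 95% interval of −0.05 to 0.74, which is 0.964-fold to 1.67-fold. Its limma adjusted p was 0.397 on set averages and 0.0975 on 12 samples. Without psad1 set 3 the log2 change was 0.14, and without WT set 3 it was 0.23. Of all tested probes, 93.1% had a lower log2 change than AT3G52960.

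NTRC, the reductase gene of these 3, had the next widest difference. Its intensity was 0.808, 0.873, 0.663, 0.751, 0.89 and 0.793 in psad1 samples 1 to 6 and 0.781, 0.865, 0.612, 0.695, 0.634 and 0.57 in WT samples 1 to 6. The second psad1 set, at 0.707, was low within psad1, and the first WT set, at 0.823, was high within WT. Set averages gave 0.796 ± 0.0774 in psad1 and 0.693 ± 0.115 in WT (SD, n = 3 each), a log2 change of 0.21 (SE 0.14, 95% interval −0.10 to 0.52). The limma adjusted p was 0.49 on set averages and 0.168 on 12 samples. Without WT set 1 the log2 change was 0.34, and without WT set 3 it was 0.11.

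SRX, the repair enzyme, did not share the direction of the other two. Its samples ran from 0.635 through a median of 0.649 to 0.705 in psad1, and from 0.557 through 0.694 to 0.754 in WT. All psad1 samples lay inside the WT range. Set averages were 0.656 ± 0.0118 in psad1 and 0.674 ± 0.0796 in WT (SD, n = 3 each), with a log2 change of −0.03 and a 95% interval of −0.29 to 0.22 (limma adjusted p 0.919 on set averages and 0.812 on 12 samples). The WT sets themselves were spread more widely than the genotypes differed, at 0.731, 0.583 and 0.708 for WT sets 1, 2 and 3. Its sign therefore depended on single sets: the log2 change was 0.03 without WT set 1 and 0.0074 without WT set 3.

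Among the other 4 genes, CCS differed between sets far more than between genotypes. Sets 1, 2 and 3 averaged 0.18, 0.28 and 0.189 in psad1, against 0.166, 0.257 and 0.17 in WT. The second set was thus the highest in both genotypes. The log2 change was 0.10 with the widest interval of the 7 genes, −0.34 to 0.54 (limma adjusted p 0.832 on set averages and 0.676 on 12 samples). It was −0.10 without psad1 set 2 and 0.29 without WT set 2. Each of these fits kept the high second set in a single genotype, so part of the swing follows from that imbalance. Between same-numbered sets the log2 differences of CCS were 0.028, 0.12 and 0.15 in sets 1, 2 and 3. The interval treats all sets as separate, and a common origin of same-numbered sets is not known. CCS was the dimmest of the probes relative to the floor below which intensities were not told apart (0.152 to 0.184 by sample). In 2 WT samples it lay at that floor, so the size of its change is uncertain and may be understated.

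GLDH, of ascorbate synthesis, had the narrowest interval of the 7 genes. Its samples ran from 0.514 through a median of 0.543 to 0.581 in psad1 and from 0.503 through 0.572 to 0.603 in WT. Every psad1 sample lay inside the WT range. The log2 change was −0.05 with a 95% interval of −0.27 to 0.17, or 0.827-fold to 1.13-fold, with a limma adjusted p of 0.823 on set averages and 0.578 on 12 samples. Without WT set 3 the log2 change was −0.0081.

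GLX2-1, of the glyoxalase II family, ran from 0.531 through a median of 0.633 to 0.796 in psad1 and from 0.537 through a median of 0.571 to 0.651. Samples 5 and 6 of psad1, at 0.694 and 0.796, were above all WT samples, and sample 4 of psad1 was below all of them. Set averages gave 0.651 ± 0.0855 in psad1 and 0.587 ± 0.0518 in WT (SD, n = 3 each), a log2 change of 0.14 with a 95% interval of −0.14 to 0.42 (limma adjusted p 0.603 on set averages and 0.281 on 12 samples). Without psad1 set 3 it was 0.04.

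CHL, the lipocalin gene, had 0.218, 0.248, 0.191, 0.261, 0.328 and 0.277 in psad1 samples 1 to 6, and in WT it ran from 0.185 through a median of 0.228 to 0.261. Here 3 psad1 samples (4, 5 and 6) were above all WT samples, although sample 4 equalled the highest WT sample to 3 digits. Partners of a set differed by up to 0.45 on the log2 scale, the widest gap between partners among the 7 genes. The log2 change was 0.14 with a 95% interval of −0.18 to 0.45 (limma adjusted p 0.666 on set averages and 0.442 on 12 samples). Without psad1 set 3 it was 0.0015. The signal was dim: psad1 sample 3 (0.191) and WT sample 3 (0.1847) lay just above their floors of 0.182 and 0.1841.

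**Figure D2:**
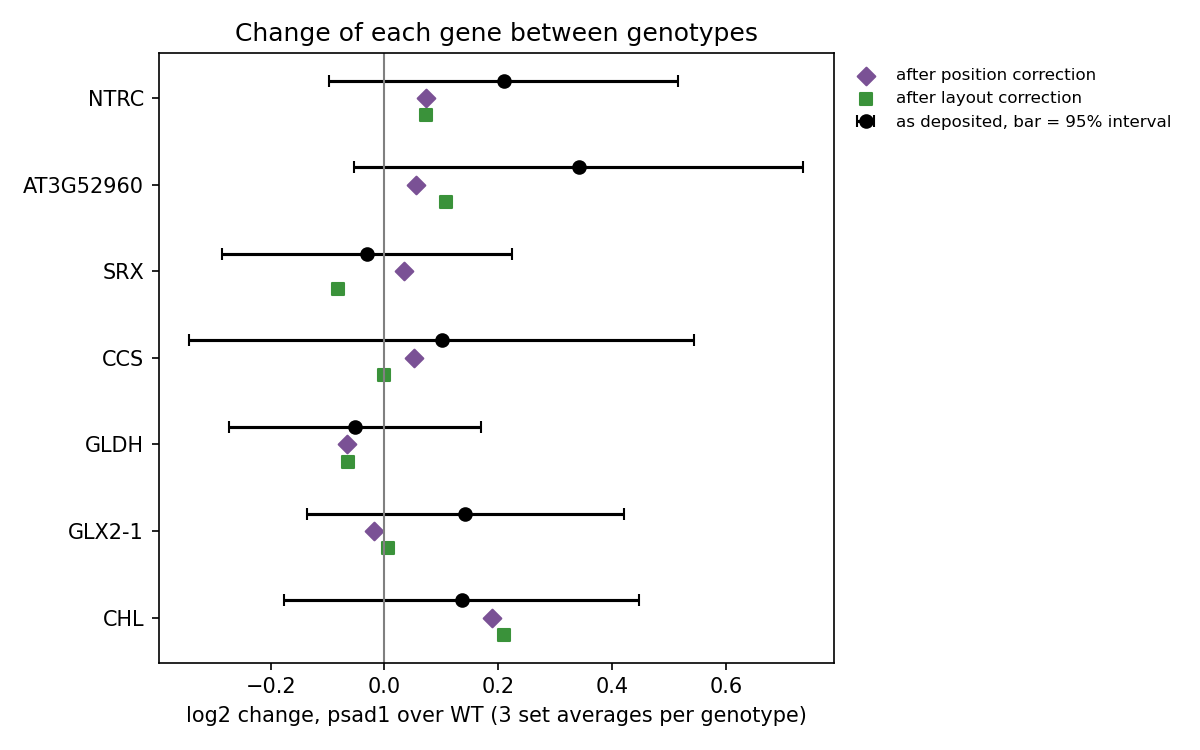
Log2 change (psad1 over WT) of the 7 genes on 3 set averages per genotype: black points with 95% intervals for the values as deposited, diamonds after the position correction and squares after the layout correction. All 7 intervals include 0, and AT3G52960 moves from 0.34 to 0.05 and 0.11 under the corrections while CHL moves from 0.14 to 0.19 and 0.21.

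Set against each other, the thiol peroxidase genes had a median log2 change of 0.21 (range −0.03 to 0.34, 2 higher and 1 lower in psad1), and the other 4 genes had a median of 0.12 (range −0.05 to 0.14, 3 higher and 1 lower). The difference of the medians was 0.09. Taken set by set, with each gene relative to its WT mean, the same difference was 0.20, 0.07 and 0.13 in psad1 sets 1, 2 and 3 and 0.12, −0.04 and −0.12 in WT sets 1, 2 and 3, so the genotypes overlapped. The ranges of both groups overlapped, and no p is given for a difference between such small groups of named genes. The third psad1 set was the highest psad1 set in 6 of the 7 genes, CCS being the exception, where the same held for 41.3% of all tested probes. The first WT set was the highest WT set in 5 of the 7, where this held for 28.8% of all tested probes. Samples of a set shared deviations across many probes, so the 7 genes need not be independent in this respect.

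Shared deviations went with the probe numbering. Over all tested probes, deviations from the genotype means correlated on average at 0.375 between probes with adjacent numbers, at 0.372 between probes 6 numbers apart and at 0.384 between probes 288 numbers apart, the highest of 1000 distances examined. The median over these distances was 0.0999. Further maxima stood at 576 (0.317) and 864 (0.233). The probes of NTRC and GLX2-1 are 6 numbers apart, so these 2 genes share most of their neighbours.

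**Figure D3:**
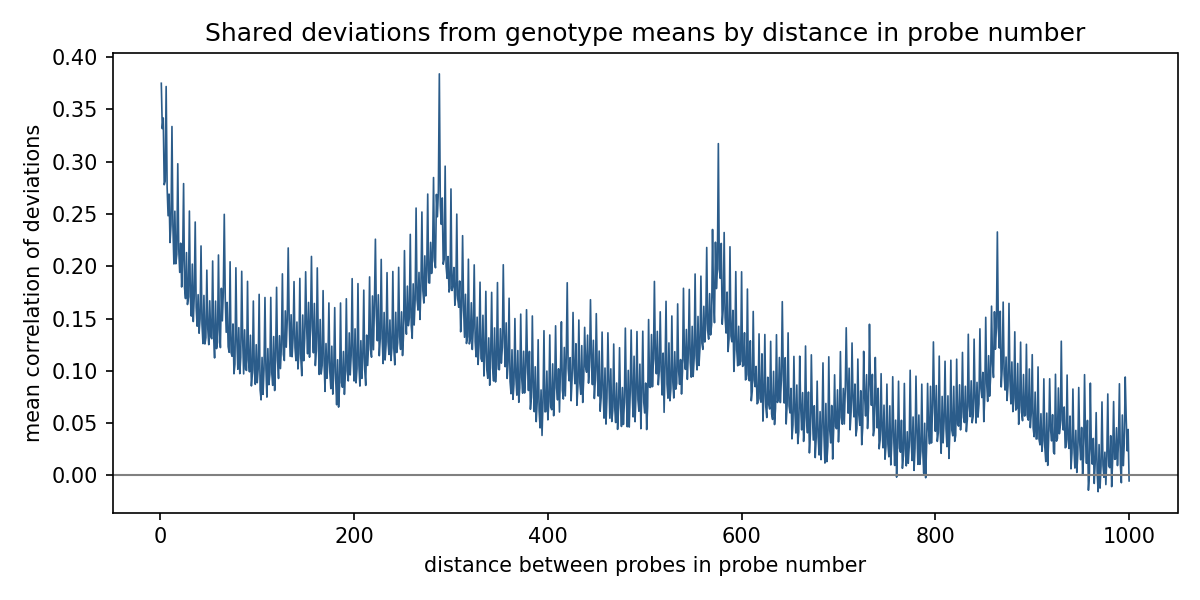
Mean correlation, over pairs of tested probes, of the 12 samples' deviations from genotype means (vertical axis) against the distance of the probes in probe number (horizontal axis, 1 to 1000). Peaks stand at 1, 288 (0.384), 576 and 864, with a finer comb of peaks 6 numbers apart.

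Probes near a member in number shared its direction in several cases. For AT3G52960, 23 of the 24 nearest tested probes were higher in psad1, with a median log2 change of 0.30, close to its own 0.34. For NTRC 21 of 24 were higher (median 0.15) and for GLX2-1 21 of 24 (median 0.17). The neighbours of SRX, CCS and GLDH had medians of −0.05, 0.01 and 0.03. For CHL, with a log2 change of 0.14, 4 of the 24 neighbours were higher in psad1 and the median was −0.07. Those 4 included both tested probes just before it in number, at 0.20 and 0.33.

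**Figure D4:**
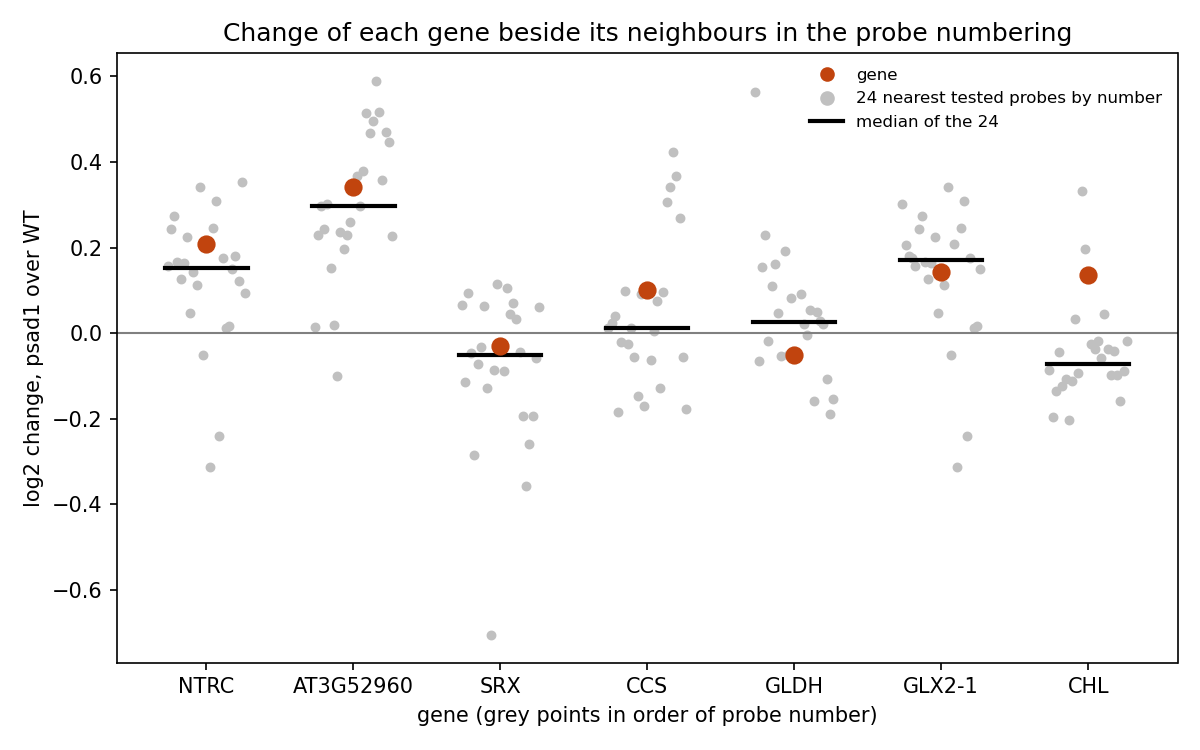
Log2 change (psad1 over WT) of each of the 7 genes (large points) and of the 24 tested probes nearest to it in probe number (grey, in order of number), with the median of the 24 as a black bar. AT3G52960 at 0.34 stands among neighbours with a median of 0.30, and CHL at 0.14 stands above a median of −0.07.

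After subtraction of a running median over 25 tested probes in number order, the log2 changes were 0.07 for NTRC, 0.05 for AT3G52960, 0.03 for SRX, 0.05 for CCS, −0.07 for GLDH, −0.02 for GLX2-1 and 0.19 for CHL. After a correction built on the distances of 6 and 288, they were 0.07, 0.11, −0.08, −0.0014, −0.06, 0.0057 and 0.21 in the same order. None passed after either correction, on set averages (where 1.75% and 1.41% of all tested probes were called) or on 12 samples (13.7% and 15.5%). CHL then had the widest change of the 7, with limma adjusted p-values of 0.553 and 0.42 on set averages. The median of the thiol peroxidase genes became 0.05 with the first correction, against 0.02 for the other 4, and 0.07 with the second, against 0.0021. SRX and GLX2-1 changed sign with the first correction and CCS with the second.

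Of 95 further genes in lists of peroxiredoxins, thioredoxins and their reductases, superoxide dismutases and catalases, the ascorbate cycle, ascorbate synthesis, glutathione, glyoxalases, lipid protection and methionine sulfoxide reductases, 1 had a tested probe of its own. This was AT2G04700, from the list of thioredoxins and their reductases. It measured 0.607 ± 0.0398 in psad1 and 0.587 ± 0.0425 in WT (SD, n = 3 set averages each), a log2 change of 0.05 with a 95% interval of −0.19 to 0.29. It did not pass (limma adjusted p 0.852 on set averages and 0.679 on 12 samples). Another 10 listed genes appear on probes with several genes and were not analysed here.

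Among the other 639 tested probes with a single gene, those whose log2 values ran most like a member over the 12 samples were described by Pearson's r, with no test. The 12 samples lie in 6 sets, and the probes share these samples, and in part also the deviations that went with probe number. NTRC ran most like AT2G44760 (r = 0.884) and AT4G24910 (0.877), and AT3G52960 most like AT1G32520 (0.952) and ATAB2 (0.942). SRX ran most like AT1G54500 (0.818) and AT2G43760 (0.79), CCS most like AT2G23390 (0.944) and AT2G27290 (0.911), and GLDH most like PPDK (0.858) and AT5G15390 (0.803). GLX2-1 ran most like GH9B12 (0.88) and Z-ISO (0.876), and CHL most like AT2G21960 (0.789) and AT2G37000 (0.772). No member was among the nearest of another. The 14 pairs were picked for the highest r in the values of the main fit. Lower r under other processing follows in part from that choice, and how much was not tested. After the position correction 12 of these 14 values were lower, all but those of CCS (0.96 and 0.938), and r was 0.66 and 0.626 for the genes paired with AT3G52960 and 0.472 and 0.325 for those paired with GLX2-1. With quantile normalization 11 of 14 were lower, and r of CCS with AT2G27290 was 0.698. With the layout correction 13 of 14 were lower, in a range of 0.313 to 0.93. Z-ISO lies 3 probe numbers from GLX2-1.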

How the data were processed

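The deposited table holds intensities of 3439 probes in 12 samples on a linear scale, a unit taken from the values. The labels state no scanner, background correction or scaling, and the sources used here do not give what the authors did before deposit. Intensities were used as deposited, since column means were close (1.05 to 1.07). Column medians differed more, from 0.554 to 0.623, and were lowest in psad1 samples 1 and 2. Each sample's 5th percentile of positive values served as a floor for its lower values before log2. Of the 3439 probes, 237 never exceeded the floor and 3202 were tested (limma 3.58.1, lmFit and eBayes, two-sided, under R 4.3.3). Figures used matplotlib 3.10.9. The fit was also run on simulated data, with set differences drawn separately for each probe. Deviations shared between probes, as seen here, were not part of that simulation.

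Samples numbered 1 and 2, 3 and 4, and 5 and 6 were averaged as sets, with a consensus correlation of 0.727 within sets. Genes were named from the platform annotation through the TAIR10.1 gene table, which matched 690 of 692 single-gene probes. No coordinates are printed, because no source used here names the array's build. The named genes are the 7 members, listed redox genes with a tested probe of their own and the 2 single-gene probes most like each member. The members, lists and sets were chosen with earlier results of these data known. The layout correction, chosen after seeing the data, subtracts from each sample's deviations the median over up to 24 probes whose numbers differ by multiples of 288 and 6, up to 2 steps each way. Alternatives covered replication, pairing, position, scaling, floor, filter and left-out sets and samples.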

Additional observations from a re-analysis of the deposited data

Results flagged for a closer look

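Of 18 groups of 6 values examined for 1 sample far from the others, 2 stood out. Chance would mark about 1 in 20 such groups if samples were independent, but partners here resembled each other. SRX in psad1 was marked because sample 5 had 0.705, against 0.635 to 0.658 in the other psad1 samples, a gap of 0.672 of the range. AT2G04700 in psad1 was marked because sample 1 had 0.715, against 0.555 to 0.607 in the others, also a gap of 0.672 of the range.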

How the results depend on the processing

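None of the 7 genes passed in any of 33 alternatives. Across these the lowest limma adjusted p was 0.0885, for NTRC with the sample number as a replicate block on 12 samples. Against 28 probes called over the whole array, 505 were called with 12 samples as replicates, 84 with sets as a random block, 761 with the sample number as a replicate block and 27 with a replicate block by set number on averaged sets. The position correction gave 56 on set averages, 47 with a window of 51 probes and 440 on 12 samples, and the layout correction gave 45 and 497. A floor at the 10th percentile gave 46 and an offset of 0.25 gave 60. Leaving out 1 set or 1 sample gave 9 (without psad1 set 2) to 53 (without psad1 set 3). Of the called probes 53.6% were higher in psad1, against 39.3% with median centring.

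The difference of medians ranged from −0.0068 to 0.22 with a set or sample left out. Changes of sign had no cause tested and met values that had not passed. SRX became 0.034 and 0.036 with the position correction over 25 and 51 probes and ranged from −0.13 to 0.032 with sets or samples left out. GLX2-1 became −0.018 and −0.017, and AT2G04700 −0.0065 and −0.0100, with the same corrections, and AT2G04700 ranged from −0.0073 to 0.098 with sets or samples left out. CCS became −0.0014 with the layout correction and ranged from −0.10 to 0.29 with sets or samples left out. NTRC, AT3G52960, GLDH and CHL kept their sign in all 33. The sample numbers were not taken to pair the genotypes, because the labels give no shared origin and only 4 of 6 same-numbered pairs correlated over 0.1 (range 0.00805 to 0.483). As a hint of pairing from the data, for 8 of 12 samples the best match in the other genotype had the same number. Each sample had 6 possible matches there, of which a single one carried its number. The main fit and its intervals leave such pairing out. Between same-numbered sets, 4 of the 7 genes had one sign in all 3 (NTRC, AT3G52960 and CCS higher, GLDH lower in psad1), where 43.8% of all tested probes did. The sizes were uneven, with set 3 the widest in each. In sets 1, 2 and 3 the log2 differences were 0.016, 0.025 and 0.98 for AT3G52960 and 0.031, 0.11 and 0.48 for NTRC. They were 0.028, 0.12 and 0.15 for CCS and −0.019, −0.030 and −0.11 for GLDH. Signal near the floor limits CCS and also CHL. The log2 change of CHL was 0.14 in the main fit, 0.11 with the floor at the 10th percentile and 0.07 with the offset. That of CCS was 0.10, 0.064 and 0.058 in the same order.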

Other observations

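The spacing of 288 and 6 in probe number, at which deviations from the genotype means were shared, was found after the values were seen. It entered the comparison of the genotypes only through the layout correction. The 14 genes most like the members lay between 3 and 3210 probe numbers away. In the order named above, the distances were 251 and 290 for NTRC, 198 and 42 for AT3G52960, and 1452 and 300 for SRX. They were 249 and 3210 for CCS, 243 and 2208 for GLDH, 251 and 3 for GLX2-1, and 713 and 930 for CHL. Whether the likeness went with these distances was not tested.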
